A study of Mus musculus with 24 samples.

Results

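Carboxylesterases and arylacetamide deacetylase are serine hydrolases that split ester and amide bonds. The genes described here are Aadac and the carboxylesterase genes Ces1d, Ces1e, Ces1f, Ces1g, Ces2a, Ces2c, Ces2e and Ces2g, taken by name, each through the probe set that carries its gene number. Of these 9 genes, 8 had a probe set in the values used here, out of 15267 genes measured in all, and Ces2c was not analysed here. RNA came from male C57BL/6 mice aged 3-3.5 months, of the genotypes Amacr-/- (called knockout) and wild-type. The intestine was cut into 4 pieces of the same size, which were opened and scraped. They are numbered here as in the labels, which do not say at which end segment 1 lies. With 3 biological replicates for each genotype and segment there were 8 groups and 24 arrays of 1 colour. The sources used here do not give how the Amacr allele was made or whether the genotypes were littermates. The study compared expression between the genotypes in each segment, with cholesterol uptake in mind.

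Carboxylesterases sit in the lumen of the endoplasmic reticulum, where they hydrolyse drugs, ester prodrugs, acylglycerols and other lipid esters. They are abundant in liver and in the enterocytes of the intestine, where they meet swallowed esters during uptake. In mice the family has grown by gene duplication: the Ces1 genes lie side by side on chromosome 8, and the Ces2 genes form a second cluster on the same chromosome. Enzymes of the human CES1 type prefer esters with a small alcohol group, and those of the CES2 type esters with a large alcohol group. Aadac lies on chromosome 3 and encodes a related hydrolase anchored in the membrane of the endoplasmic reticulum. Amacr encodes a racemase of peroxisomes and mitochondria that lets branched fatty acids and bile acid precursors enter beta-oxidation.

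Values are the authors' RMA levels, whose scale was taken as log2 since the base is not stated, and array medians ran from 6.06 to 6.16. Differences are of group means, with the standard error (SE) and adjusted p of a limma fit over all genes. Amacr was lower in knockout than in wild-type arrays of each segment, with differences of -3.08, -2.84, -1.95 and -2.08 in segments 1 to 4 (SE 0.19 each, highest adjusted p = 1.85e-05). The labels name the scraped cells endothelial. The mean level of the 11 measured of 12 enterocyte markers was 12.93 to 13.46 over the 24 arrays, while that of 10 vessel endothelium markers was 5.05 to 5.79, under every array's median. On 6 arrays the mean of exocrine pancreas, fat cell or smooth muscle markers lay over 1 log2 unit above its mean over all arrays: knockout replicate 3 and wild-type replicate 1 of segment 1 (pancreas), knockout replicates 1 and 3 and wild-type replicate 3 of segment 2 (fat), and knockout replicate 3 of segment 3 (fat). Knockout replicate 1 and wild-type replicate 3 of segment 2 were high in smooth muscle markers too. Counts for the lists of markers and other genes below use all 24 arrays. The arrays named above are called the 6 marker-rich arrays below. Where leaving them out changed a call of the 8 genes, both results are given. Leaving these 6 arrays out keeps a single knockout array of segment 2, replicate 2, which the fit then takes to vary like the other groups. Paralogous Ces transcripts are near copies, and whether their probe sets also detect each other was not tested.

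The esterase genes differed by position along the intestine and not detectably by genotype. Of the 8 measured genes, 5 (Aadac, Ces1e, Ces1f, Ces1g and Ces2g) fell in segment 4 relative to segment 1 in knockout mice, where 14.9% of all genes fell, and 5 fell in wild-type mice, where 13.6% of all genes did. They were the same 5 genes in both genotypes. Ces1d, Ces2a and Ces2e did not pass the threshold, an adjusted p of 0.05, in either genotype. The median difference over the 8 genes was -2.53 in knockout and -3.12 in wild-type mice (log2), and over all genes -0.01 in knockout and 0.03 in wild-type mice. In scraped tissue, fewer cells of a type and less RNA per cell cannot be told apart.

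**Figure D1:**
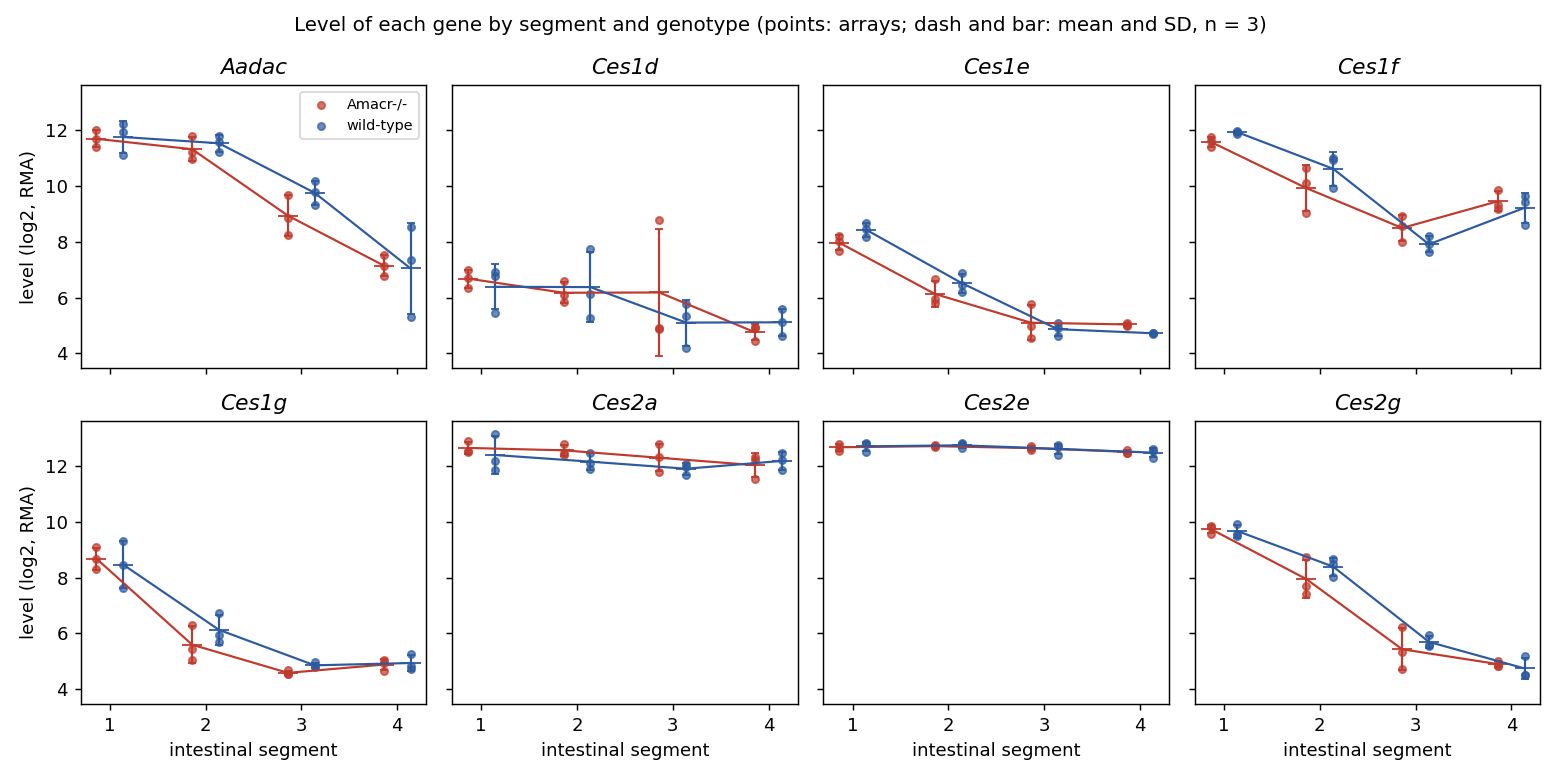
Level of each of the 8 genes (log2, RMA) in segments 1 to 4, with knockout arrays in red to the left of wild-type arrays in blue; points are arrays, dashes and bars the mean and SD of 3. Ces2a and Ces2e stay between 11.54 and 13.17, while Ces2g falls to means of 4.90 in knockout and 4.74 in wild-type arrays of segment 4.

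Ces2g fell furthest of the 8 genes. In knockout mice its level was 9.58, 9.83 and 9.84 in segment 1, 7.40, 7.72 and 8.73 in segment 2, 6.24, 5.32 and 4.74 in segment 3 and 4.83, 5.03 and 4.84 in segment 4. Wild-type arrays had 9.57, 9.51 and 9.94 in segment 1, 8.50, 8.66 and 8.03 in segment 2, 5.57, 5.56 and 5.96 in segment 3 and 4.52, 4.52 and 5.19 in segment 4. Segments 1, 2 and 3 held separate ranges within each genotype, and in segment 4 every value lay below the median of its array. Segment 4 minus segment 1 was -4.85 (SE 0.32, adjusted p = 1.26e-09) in knockout mice, 28.8-fold lower. It was -4.93 (SE 0.32, adjusted p = 1.43e-09) in wild-type mice, 30.5-fold lower. Of its steps, that from segment 2 to segment 3 was largest in both genotypes, -2.52 (SE 0.32, adjusted p = 0.000102) in knockout and -2.70 (SE 0.32, adjusted p = 6.54e-05) in wild-type mice. The step from segment 1 to segment 2 was -1.80 (SE 0.32, adjusted p = 0.00272) in knockout and -1.28 (SE 0.32, adjusted p = 0.0665) in wild-type mice, passing in knockout mice only. The step between segments 3 and 4 did not pass, with -0.53 in knockout (adjusted p = 0.499) and -0.95 in wild-type mice (adjusted p = 0.103). In wild-type mice it passed with the 6 marker-rich arrays left out (-0.95, adjusted p = 0.0266). RMA compresses low values, so the folds of genes that end near 5 may be understated. The share of all genes whose arrays separate between segments is not given here. Statements that arrays of segments do or do not overlap, here and below, describe the values only.

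Ces1e encodes egasyn, the esterase that holds beta-glucuronidase in the endoplasmic reticulum of mouse liver. Its level in knockout mice was 7.68, 8.03 and 8.21 in segment 1, 5.80, 5.94 and 6.66 in segment 2, 5.78, 4.98 and 4.55 in segment 3 and 5.02, 5.10 and 5.0 in segment 4. Its wild-type levels were 8.18, 8.47 and 8.67 in segment 1, 6.47, 6.89 and 6.21 in segment 2, 4.92, 4.61 and 5.08 in segment 3 and 4.74, 4.72 and 4.71 in segment 4. It fell at the first step and again at the second, after which the arrays of segments 3 and 4 overlapped. The second step was -1.03 (SE 0.26, adjusted p = 0.0195) in knockout and -1.65 (SE 0.26, adjusted p = 0.0011) in wild-type mice. The knockout call was lost without replicate 3 of segment 2 or replicates 2 or 3 of segment 3 (-0.77, -0.97 and -0.75), and with the 6 marker-rich arrays left out (-0.56, adjusted p = 0.877). For Ces1e, segment 2 minus segment 1 was -1.84 (SE 0.26, adjusted p = 0.000268) in knockout and -1.92 (SE 0.26, adjusted p = 0.000369) in wild-type mice. For Ces1e, segment 4 minus segment 1 was -2.93 (SE 0.26, adjusted p = 4.1e-08) in knockout and -3.72 (SE 0.26, adjusted p = 3.41e-09) in wild-type mice.

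Ces1g, whose loss in mice raises lipids in liver and blood, fell earliest. In knockout mice it had 9.09, 8.30 and 8.67 in segment 1, 5.43, 5.04 and 6.32 in segment 2, 4.68, 4.55 and 4.53 in segment 3 and 5.06, 4.66 and 4.93 in segment 4. Wild-type arrays held 7.64, 8.46 and 9.31 in segment 1, 5.94, 6.74 and 5.71 in segment 2, 4.78, 4.96 and 4.83 in segment 3 and 4.83, 4.72 and 5.27 in segment 4. Most of its range was passed between segments 1 and 2, and segments 3 and 4 held overlapping low values. The first step was -3.09 (SE 0.35, adjusted p = 2.55e-05) in knockout and -2.34 (SE 0.35, adjusted p = 0.00128) in wild-type mice. The second step did not pass, with -1.01 in knockout (adjusted p = 0.1) and -1.27 in wild-type mice (adjusted p = 0.0631). In knockout mice it was -1.29 and passed without replicate 2 of segment 2 (adjusted p = 0.0387), was -0.65 without replicate 3 of segment 2, and was -0.43 with the 6 marker-rich arrays left out (adjusted p = 0.997). It passed in wild-type mice with the 6 marker-rich arrays left out (-1.48, adjusted p = 0.0135). For Ces1g, segment 4 minus segment 1 was -3.80 (SE 0.35, adjusted p = 7.68e-08) in knockout and -3.53 (SE 0.35, adjusted p = 2.88e-07) in wild-type mice.

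Aadac showed no detectable difference between segments 1 and 2 and was lower beyond them. In knockout mice its level was 12.01, 11.39 and 11.70 in segment 1, 10.96, 11.23 and 11.79 in segment 2, 9.70, 8.87 and 8.26 in segment 3 and 7.53, 6.78 and 7.15 in segment 4. Wild-type levels were 11.11, 12.23 and 11.95 in segment 1, 11.21, 11.60 and 11.81 in segment 2, 9.31, 9.79 and 10.18 in segment 3 and 5.29, 7.34 and 8.52 in segment 4. Segments 1 and 2 overlapped in both genotypes, and the arrays of segment 4 lay below those of segment 3. From end to end, segment 4 minus segment 1 was -4.55 (SE 0.54, adjusted p = 2.27e-06) in knockout and -4.71 (SE 0.54, adjusted p = 2.03e-06) in wild-type mice. Segment 2 differed from segment 1 by -0.37 (95% confidence interval -1.51 to 0.76) in knockout and -0.22 (-1.36 to 0.91) in wild-type mice. Segment 3 differed from segment 2 by -2.38 (SE 0.54, adjusted p = 0.0117) in knockout mice and by -1.78 (SE 0.54, adjusted p = 0.102) in wild-type mice. The call in knockout mice was lost without replicate 3 of segment 2 (-2.15, adjusted p = 0.0748) or of segment 3 (-2.04, adjusted p = 0.0615). It was also lost with the 6 marker-rich arrays left out (-1.95, adjusted p = 0.813). Segment 4 differed from segment 3 by -1.79 (SE 0.54, adjusted p = 0.0797) in knockout and by -2.71 (SE 0.54, adjusted p = 0.00512) in wild-type mice. The wild-type arrays of segment 4 spread over 3.23 log2 units, more than any other group of this gene. Without replicate 1, the lowest of them, the last step in wild-type mice was -1.83 (adjusted p = 0.0268).

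Ces1f, a lipid hydrolase of liver and fat tissue, was lowest in segment 3 and not in segment 4. Its level in knockout mice was 11.76, 11.40 and 11.62 in segment 1, 10.10, 9.03 and 10.66 in segment 2, 8.94, 7.99 and 8.57 in segment 3 and 9.86, 9.18 and 9.34 in segment 4. Wild-type values were 11.99, 11.88 and 11.94 in segment 1, 10.95, 11 and 9.92 in segment 2, 8.20, 7.92 and 7.63 in segment 3 and 9.65, 8.61 and 9.42 in segment 4. All arrays of segment 4 lay above all arrays of segment 3 in both genotypes. Segment 4 minus segment 3 was 0.96 (SE 0.36, adjusted p = 0.182) in knockout mice, which did not pass, and 1.31 (SE 0.36, adjusted p = 0.041) in wild-type mice. The wild-type call was lost when any of replicates 1, 2 and 3 of segment 3 or replicates 1 and 3 of segment 4 was left out (1.10 to 1.45, adjusted p = 0.0619 to 0.202). Segment 3 minus segment 2 was -1.43 (SE 0.36, adjusted p = 0.0206) in knockout and -2.71 (SE 0.36, adjusted p = 0.000274) in wild-type mice. The knockout call was lost without replicates 1 or 3 of segment 2 or replicates 2 or 3 of segment 3 (-1.47 to -1.06), and with the 6 marker-rich arrays left out (-0.57, adjusted p = 0.997). Segment 4 minus segment 1 was -2.13 (SE 0.36, adjusted p = 0.000122) in knockout and -2.71 (SE 0.36, adjusted p = 1.05e-05) in wild-type mice. The first step was -1.66 (SE 0.36, adjusted p = 0.0115) in knockout mice. The call rested on replicate 2 of segment 2, the lowest of that group: the step was -1.21 without it (adjusted p = 0.0766) and -2.55 with the 6 marker-rich arrays left out, when segment 2 is that array alone. In wild-type mice it was -1.31 (SE 0.36, adjusted p = 0.103). The interaction of genotype and segment was not called for Ces1f (adjusted p = 0.835).

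The measured levels of Ces2a and Ces2e varied least along the intestine. Both genes stood near the top of the scale, with means of 12.28 and 12.64 over all arrays, at percentiles 99 and 99.3 of all genes. Whether signal this high compresses their differences was not tested. Over the 12 knockout arrays Ces2e ran from 12.48 to 12.81, and over the 12 wild-type arrays from 12.30 to 12.83. Its group means spanned 0.26 log2 units, a 1.2-fold range, and its SD within groups had a median of 0.11. Segment 4 minus segment 1 was -0.16 (95% confidence interval -0.38 to 0.05) in knockout and -0.23 (-0.44 to -0.01, adjusted p = 0.123) in wild-type mice. Without wild-type replicate 1 of segment 1, the array highest in pancreas markers, the wild-type difference was -0.32 and passed (adjusted p = 0.0337). Wild-type replicate 1 had the lowest wild-type level of Ces2e in all 4 segments, and its array of segment 4, at 12.30, stayed in. Ces2a ran from 11.54 to 12.92 in knockout and from 11.67 to 13.17 in wild-type arrays. Its segment 4 minus segment 1 was -0.62 (-1.23 to -0.01, adjusted p = 0.125) in knockout and -0.21 (-0.83 to 0.40, adjusted p = 0.669) in wild-type mice. The largest fall within these intervals, -1.23, is smaller than the smallest called fall of the 5 other genes, -2.13.

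Ces1d, the triacylglycerol hydrolase that mobilises stored fat in liver and fat tissue, varied most within groups. In knockout mice its level was 6.72, 6.35 and 6.99 in segment 1, 6.11, 5.83 and 6.59 in segment 2, 4.86, 4.90 and 8.80 in segment 3 and 4.43, 4.90 and 4.94 in segment 4. Its values in wild-type mice were 5.46, 6.93 and 6.78 in segment 1, 5.26, 6.12 and 7.76 in segment 2, 4.19, 5.35 and 5.78 in segment 3 and 4.62, 5.14 and 5.59 in segment 4. Its highest 2 values, 8.80 and 7.76, stood on the arrays highest in fat cell markers. On the first, knockout replicate 3 of segment 3, the mean of the 7 measured of 10 fat cell markers lay 3.11 above its mean over all arrays, and Adipoq, the adipocyte hormone adiponectin, stood at 12.11 against 4.05 and 5.53 on the other knockout arrays of that segment. On the second, wild-type replicate 3 of segment 2, the markers lay 2.24 above the mean and Adipoq stood at 10.08. In segment 3 the mean marker level ran from 6.26 to 10.25 in knockout and from 6.47 to 6.61 in wild-type arrays, and in segment 2 from 7.40 to 8.53 in knockout and from 6.46 to 9.38 in wild-type arrays. Over all arrays, segment 4 minus segment 1 of Ces1d was -1.93 (SE 0.77, adjusted p = 0.0665) in knockout mice. In wild-type mice it was -1.27 (SE 0.77, adjusted p = 0.268), and neither passed. With the 6 marker-rich arrays left out it was -1.78 in knockout (adjusted p = 0.00346) and -1.74 in wild-type mice (adjusted p = 0.00502), and both passed. Of the arrays left out, those in this contrast were knockout replicate 3 (6.99) and wild-type replicate 1 (5.46) of segment 1. These were rich in pancreas and not in fat cell markers. All groups share the same estimate of the spread, so leaving out arrays of segments 2 and 3 also alters these adjusted p. The other fat-rich arrays, knockout replicates 1 and 3 of segment 2 (markers 1.32 and 1.39 above the mean), had Ces1d at 6.11 and 6.59. The part of other tissue in the level of Ces1d was not tested.

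**Figure D2:**
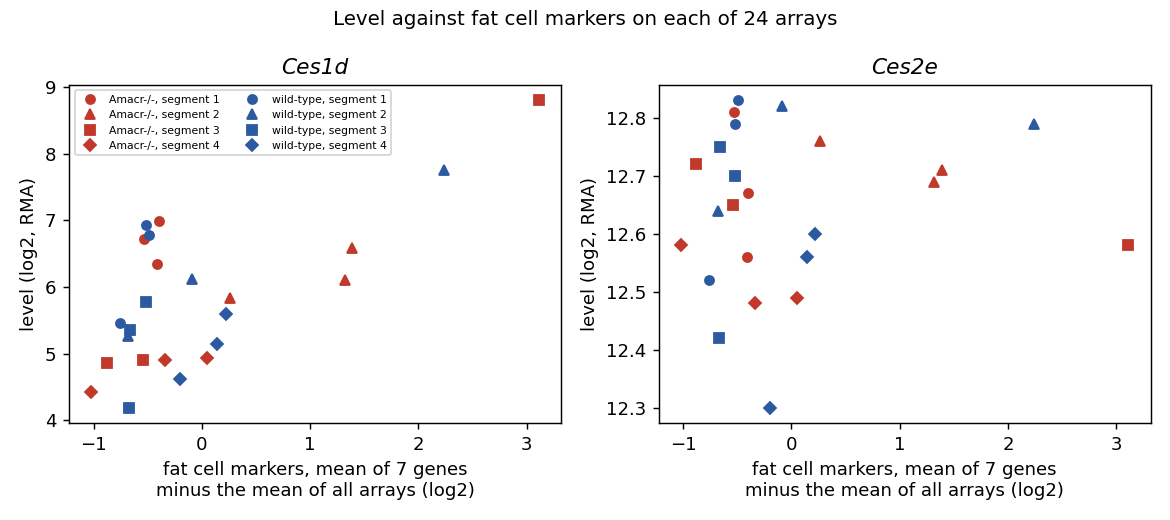
Level of Ces1d (left) and of Ces2e (right) on each of the 24 arrays (log2, RMA) against the mean of 7 fat cell markers, given as its distance from the mean of all arrays (log2); colour is the genotype and shape the segment. The 2 arrays farthest to the right, at 3.11 and 2.24, carry the highest Ces1d levels, 8.80 and 7.76, while Ces2e on them is 12.58 and 12.79.

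A test of any difference among the 4 segments, limma's moderated F over 3 contrasts, called 5 of the 8 genes in knockout mice, where 28.3% of all genes were called, and the same 5 in wild-type mice, where 22.7% were. The F values of the called genes ran from 26.1 (Ces1f) to 100 (Ces2g) in knockout and from 32.3 (Aadac) to 103 (Ces2g) in wild-type mice. Ces1d, Ces2a and Ces2e had adjusted p = 0.237, 0.339 and 0.432 in knockout and 0.339, 0.601 and 0.198 in wild-type mice. With the 6 marker-rich arrays left out Ces1d passed as well (adjusted p = 0.0154 in knockout and 0.0147 in wild-type mice), and so it did in knockout mice without replicate 3 of segment 3 alone (adjusted p = 0.0148). Step by step, from segment 1 to 2, 4 of the 8 genes fell in knockout mice (1.81% of all genes) and 2 fell in wild-type mice (0.537%). From segment 2 to 3, 4 fell in knockout mice (3.59%) and 3 in wild-type mice (1.34%). The knockout count was 1 with the 6 marker-rich arrays left out, and 1 to 5 with each array left out in turn. From segment 3 to 4, limma called 0 in knockout mice, where it called 3.54% of all genes. Its unadjusted p was below 0.05 there for 2 of the 8 and for 2233 of all 15267 genes. In wild-type mice Aadac fell over that step (2.56% of all genes) and Ces1f rose (1.94%). That a step was called in 1 genotype only does not show that the genotypes differ in it.

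**Figure D3:**
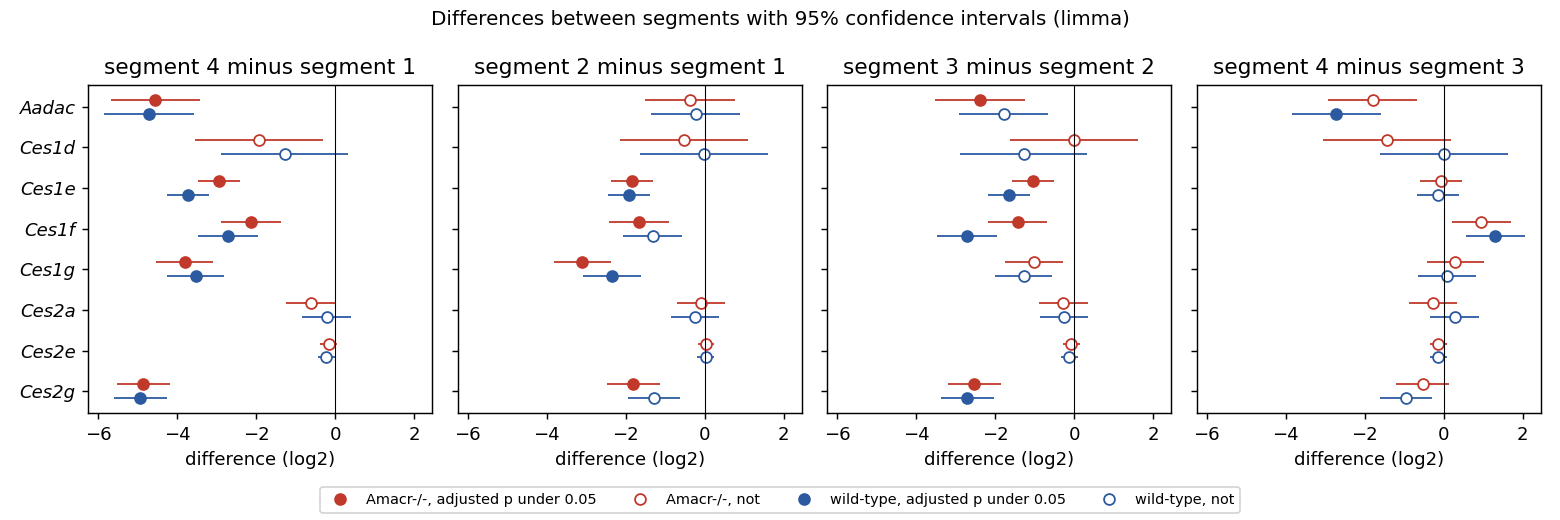
Difference between segments for each of the 8 genes (log2, with 95% confidence intervals from limma), knockout in red above wild-type in blue; filled points have an adjusted p under 0.05. In segment 4 minus segment 1 the filled points run from -4.85 to -2.13 in knockout and from -4.93 to -2.71 in wild-type mice, and the open points of Ces2a and Ces2e lie between -0.62 and 0.

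Markers of other cell types moved with the same contrast. For these lists and the gene lists below, the share of all genes that fell was 14.9% in knockout and 13.6% in wild-type mice. The share of all genes that rose is not given here, so counts of rises have no such measure beside them. In segment 4 relative to segment 1 of knockout mice, 7 of 9 measured markers of T cells and intraepithelial lymphocytes fell, while 7 of 7 of proliferating crypt cells, 5 of 6 of goblet cells and 3 of 3 of Paneth cells rose. In wild-type mice 6 of 9, 4 of 7, 6 of 6 and 3 of 3 did so. The mean level of the crypt cell markers in knockout mice was 7.11 to 7.84 in segment 4 and 5.56 to 6.40 in segment 1, and in wild-type mice 7.0 to 7.75 in segment 4 and 5.84 to 7.07 in segment 1. That of the T cell markers in knockout mice was 7.69 to 8.39 in segment 4 and 8.87 to 9.09 in segment 1, and in wild-type mice 8.03 to 8.37 in segment 4 and 8.86 to 8.97 in segment 1. Of 11 enterocyte markers, 6 rose and 2 fell in knockout and 5 rose and 2 fell in wild-type mice, with median differences of 0.19 in knockout and 0.17 in wild-type mice. Of 9 enteroendocrine markers, 1 rose and 3 fell in each genotype, and of exocrine pancreas markers 1 of 10 fell in knockout and 2 of 10 in wild-type mice. For fat cells 2 of 7 fell in each genotype, and for B and plasma cells 0 of 5 changed in knockout and 1 rose in wild-type mice. Of the markers of vessel endothelium, smooth muscle, fibroblasts, and macrophages and dendritic cells, 0 passed in either genotype. The part of these cell types in the fall of the esterase genes was not tested.

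Ces2a, Ces2e and Ces2g lie in the same cluster yet had unlike profiles, and Ces1e and Ces1g shared a fall. Their promoter windows, from 250 bases before to 50 after the start of the gene, are shown for that reason (RefSeq, GRCm38.p6, 5′ to 3′ on the gene's strand). Capitals mark the letters AGATAA or their reverse complement, a form of the site bound by GATA factors. Other forms were not searched. For example, TGATAA stands unmarked in the Ces2g window and, as its reverse complement TTATCA, in the Ces2a window. The first pair, which fell toward segment 4, lies at chr8:93229570-93229869 (Ces1e) and chr8:93337160-93337459 (Ces1g), both on the minus strand.
Ces1e: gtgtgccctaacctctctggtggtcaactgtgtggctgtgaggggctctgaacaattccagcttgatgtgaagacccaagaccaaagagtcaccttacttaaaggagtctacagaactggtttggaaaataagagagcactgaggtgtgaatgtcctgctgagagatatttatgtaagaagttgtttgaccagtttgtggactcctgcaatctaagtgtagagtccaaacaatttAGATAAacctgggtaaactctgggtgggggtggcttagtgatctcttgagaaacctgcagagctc
Ces1g: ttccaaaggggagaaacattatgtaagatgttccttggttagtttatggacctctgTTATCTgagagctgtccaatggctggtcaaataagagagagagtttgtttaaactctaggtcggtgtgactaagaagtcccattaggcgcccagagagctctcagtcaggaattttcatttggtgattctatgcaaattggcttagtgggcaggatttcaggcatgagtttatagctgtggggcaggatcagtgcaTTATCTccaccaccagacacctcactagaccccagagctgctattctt
The following 3 come from the other cluster, at chr8:104733753-104734052 (Ces2a), chr8:104926010-104926309 (Ces2e) and chr8:104961468-104961767 (Ces2g), all on the plus strand.
Ces2a: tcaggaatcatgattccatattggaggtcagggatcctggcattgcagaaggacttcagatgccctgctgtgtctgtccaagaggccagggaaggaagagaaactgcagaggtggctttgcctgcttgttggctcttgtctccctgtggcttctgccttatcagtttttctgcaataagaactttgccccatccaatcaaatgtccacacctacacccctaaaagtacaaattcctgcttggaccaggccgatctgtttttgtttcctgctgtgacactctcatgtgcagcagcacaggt
Ces2e: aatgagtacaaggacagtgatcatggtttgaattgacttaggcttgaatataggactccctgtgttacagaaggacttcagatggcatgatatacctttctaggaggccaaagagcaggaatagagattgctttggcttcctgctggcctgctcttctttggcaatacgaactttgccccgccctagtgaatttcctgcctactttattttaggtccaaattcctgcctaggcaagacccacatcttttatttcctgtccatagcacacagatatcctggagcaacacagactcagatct
Ces2g: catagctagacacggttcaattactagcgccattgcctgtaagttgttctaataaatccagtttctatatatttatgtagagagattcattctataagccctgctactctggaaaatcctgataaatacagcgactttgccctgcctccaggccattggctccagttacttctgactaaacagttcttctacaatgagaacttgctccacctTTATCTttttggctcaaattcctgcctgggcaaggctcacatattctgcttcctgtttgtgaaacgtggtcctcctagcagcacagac
The windows of Ces2a and Ces2e, the genes that varied least, had 184 of 300 bases identical in a global alignment. Their longest shared run was 17 bases. The window of Ces2g matched each of them at 169 bases, against 154 between Ces1e and Ces1g and 139 to 160 between Aadac and the others. That of Ces2c, a gene not analysed here, matched the windows of Ces2a at 201, Ces2g at 192 and Ces2e at 180 bases. A window was found for 7 of the 9 genes, Ces1d and Ces1f being the others. AGATAA occurred, on either strand, in 3 of the 7 windows (Ces1e, Ces1g and Ces2g) and in 11.2% of 32544 windows of all genes. The window of Aadac, which also fell toward segment 4, did not hold it, nor did those of Ces2a, Ces2c and Ces2e. TATAAA occurred in 1 of the 7 (Ces1g) and in 13.6% of all, and CAAAGTNCA, the core of the HNF4 site, in 0 of the 7 and 1.43% of all. These letters were chosen for the search after the profiles were known, and the matches describe sequence only.

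Among 18 measured regulators of xenobiotic and lipid genes, 4 rose and 8 fell in segment 4 relative to segment 1 in knockout mice, and 3 rose and 9 fell in wild-type mice. Gata4, a factor of the proximal intestine, fell, with -1.80 in knockout and -1.64 in wild-type mice (SE 0.12 each). The transcription factor gene Onecut2 fell too, with -5.49 in both genotypes (SE 0.34 each). Nr1i3, the nuclear receptor CAR, which controls drug-metabolising genes, had -3.85 in knockout and -3.45 in wild-type mice (SE 0.26 each). Nr1h4, the bile acid receptor FXR, rose by 2.77 in knockout and 2.03 in wild-type mice (SE 0.23 each). Of 17 measured targets of PXR and CAR, the nuclear receptors that sense foreign compounds, 10 fell and 0 rose in knockout and 11 fell and 0 rose in wild-type mice, with median differences of -1.41 in knockout and -1.14 in wild-type mice. The cytochrome P450 genes Cyp2c29 and Cyp2b10 fell, with -5.59 (SE 0.68) and -5.32 (SE 0.45) in knockout mice and -3.19 and -4.07 in wild-type mice. Gstm1 and Gstm3, which conjugate glutathione to electrophiles, also fell, with -4.09 and -3.68 in knockout and -3.82 and -3.20 in wild-type mice.

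Of 15 further family members, 4 were measured, and in segment 4 relative to segment 1 limma called 1 higher and 1 lower in knockout and 1 higher and 2 lower in wild-type mice. Ces2b, a neighbour of Ces2a, fell, with -2.21 in knockout (SE 0.42, adjusted p = 0.000393) and -1.74 in wild-type mice (SE 0.42, adjusted p = 0.00421). Its means were 10.21 ± 0.83, 8.20 ± 0.21, 7.64 ± 0.41 and 8.0 ± 0.34 in segments 1 to 4 of knockout mice and 9.70 ± 0.89, 8.09 ± 0.67, 7.56 ± 0.34 and 7.96 ± 0.32 in those of wild-type mice (log2, SD, n = 3). Ces1c, the esterase of mouse plasma, rose by 0.66 in knockout and 0.72 in wild-type mice (SE 0.19 each), with group means of 4.58 to 5.43. Nceh1, a hydrolase of cholesteryl ester and ether lipids, had -0.64 in knockout mice (adjusted p = 0.0603) and fell in wild-type mice, with -0.91 (adjusted p = 0.0117). Ces4a had group means of 4.53 to 4.79 and no call in segment 4 relative to segment 1.

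Of 23 other ester and lipid hydrolases, 2 rose and 12 fell in knockout and 1 rose and 10 fell in wild-type mice in the same contrast. Plb1, the brush border phospholipase B, rose by 5.07 in knockout and 5.30 in wild-type mice (SE 0.37 each), opposite to the esterase genes. The epoxide hydrolases Ephx1 and Ephx2 fell, with -3.89 and -3.06 in knockout and -2.64 and -2.56 in wild-type mice. Lipa, the lysosomal acid lipase, had -1.89 in knockout and -1.47 in wild-type mice (SE 0.21 each). Bche, butyrylcholinesterase, had -1.31 in knockout and -1.71 in wild-type mice (SE 0.42 each). Of 22 genes of triacylglycerol resynthesis and chylomicron assembly, 1 rose and 16 fell in knockout and 1 rose and 15 fell in wild-type mice, with median differences of -0.59 in knockout and -0.52 in wild-type mice. The largest called changes among them were falls of Fabp1 and Cd36, which carry fatty acids within and into cells, and of the apolipoproteins Apoa4 and Apoc3. In knockout mice these had -4.35, -4.32, -2.49 and -2.35, and in wild-type mice -2.91, -3.29, -1.44 and -1.56.

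Between the genotypes, limma called 0 of the 8 esterase genes in any segment, and 0 had an unadjusted p below 0.05. Over all genes 0.111%, 0.0721%, 0.0262% and 0.0655% were called in segments 1 to 4. Unadjusted p from limma was below 0.05 for 1740, 1040, 1243 and 748 of the 15267 genes in those segments. In segment 1, Ces1e averaged 7.97 ± 0.27 in knockout and 8.44 ± 0.25 in wild-type mice (log2, SD, n = 3), a difference of -0.47 (95% confidence interval -1.0 to 0.07, adjusted p = 0.497), and -0.72 with the 6 marker-rich arrays left out. In segment 2, Ces1f averaged 9.93 ± 0.83 in knockout and 10.62 ± 0.61 in wild-type mice, a difference of -0.69 (-1.44 to 0.06, adjusted p = 0.772). That difference was -0.24 without knockout replicate 2, -1.06 without knockout replicate 3, -1.04 without wild-type replicate 3, and -1.95 with the 6 marker-rich arrays left out, when replicate 2 is the only knockout array. In segment 3, Aadac averaged 8.94 ± 0.72 in knockout and 9.76 ± 0.44 in wild-type mice, a difference of -0.82 (-1.95 to 0.32, adjusted p = 0.68). It was -0.48 without knockout replicate 3, the array rich in fat cell markers, and -1.20 to -0.48 with each array left out in turn. The arrays of both genotypes overlapped in 29 of the 32 pairs of groups. The others were Ces1f in segment 1 and Ces1g in segment 3, lower in knockout mice (differences of -0.34 and -0.27), and Ces1e in segment 4, higher in knockout mice by 0.32. Non-overlap occurred for 16.7%, 9.5%, 10.9% and 10.7% of all genes in segments 1 to 4.

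**Figure D4:**
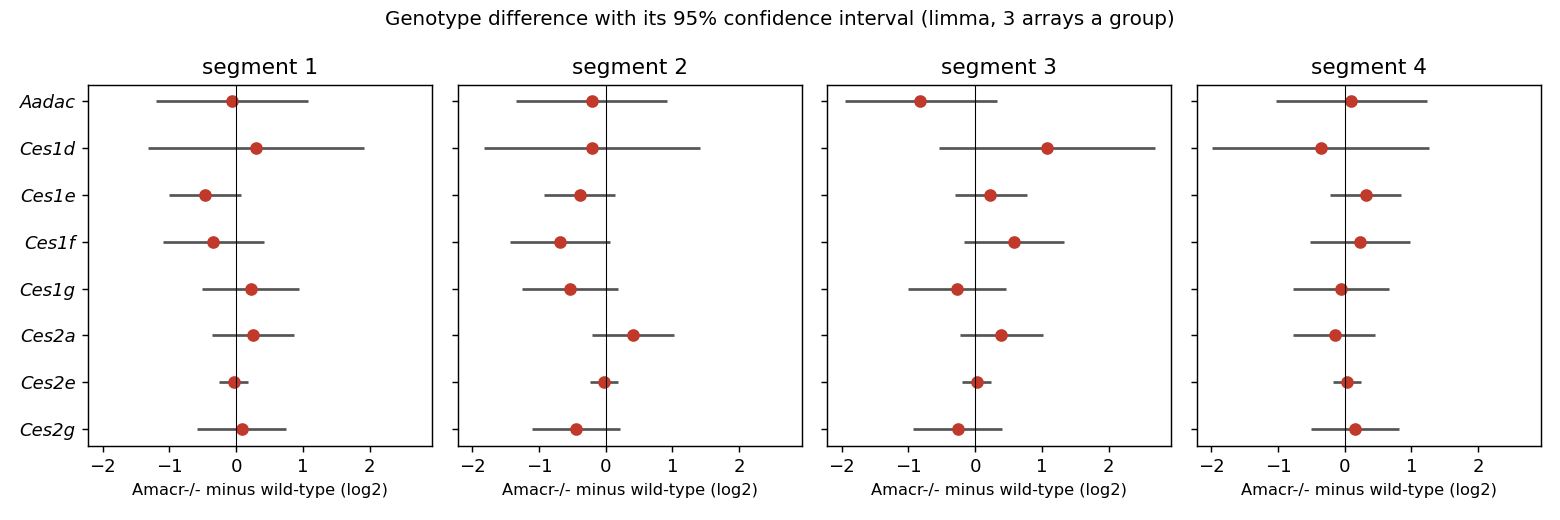
Difference between knockout and wild-type mice for each of the 8 genes in segments 1 to 4 (log2, points, with 95% confidence intervals from limma as lines). All 32 intervals include 0, the narrowest being those of Ces2e, within -0.25 and 0.24, and the widest those of Ces1d, within -1.98 and 2.70.

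The intervals set what was detectable. For Ces2e the genotype difference lay within -0.25 and 0.24 in each segment, while for Aadac and Ces1d differences of over 1 log2 unit lay within the intervals of every segment. The largest difference, 1.08 for Ces1d in segment 3 (-0.54 to 2.70), turned to -0.23 once knockout replicate 3, which carried the fat cell markers, was left out. Averaged over the 4 segments by replicate number, the differences ran from -0.25 (Aadac) to 0.22 (Ces2a), and 0 of the 8 passed (lowest adjusted p = 0.802; 0.0262% of all genes called). Those means were 12.68, 12.20 and 12.29 in knockout and 12.04, 12.15 and 12.30 in wild-type mice for Ces2a. For Ces2g they were 7.01, 6.97 and 7.04 in knockout and 7.04, 7.06 and 7.28 in wild-type mice. The interaction of genotype and segment called 0 of the 8 genes and 0% of all genes by limma's F test, while 0 of the 8 and 907 of all genes had an unadjusted p below 0.05. Of the lists of other carboxylesterases, other hydrolases, triacylglycerol genes, PXR and CAR targets and regulators, 0 members passed between the genotypes in any segment.

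Over the 24 arrays, which share the segment gradient, the genes most like each esterase gene by Pearson correlation are named here. Other esterase genes of the 8 and genes with predicted or clone names were passed over. Ces2g varied with Reg1 (r = 0.984), Grhpr (0.982) and Rtn4rl1 (0.981), and Aadac with Mtarc2 (0.984), Vwce (0.981) and Adh1, an alcohol dehydrogenase (0.979). Ces1g varied with Gsta2 (0.980), Otop3 (0.969) and Cyp4a10, a fatty acid hydroxylase (0.967), and Ces1e with Cyp4a10 and Otop3 (0.971 each) and Agmat (0.969). Ces1f was closest to Slc25a13 (0.929), Aldoc (0.915) and Abcc3 (0.910), and Ces1d to Rbp4, the retinol carrier (0.906), Phyhd1 (0.882) and Sbsn (0.873). Ces2e, whose arrays spanned 0.53 log2 units, was closest to Cat, catalase (0.919), Hsd17b4 (0.897) and Slc31a1 (0.891), and Ces2a to Cyp2c55 (0.790), Gadd45a (0.756) and Tatdn3 (0.756). Among the 8 genes, the correlation was highest for Ces1e with Ces2g (0.956) and Ces1e with Ces1g (0.948) and lowest for Ces1d with Ces2a (0.122). These are descriptions over arrays that differ in segment.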

How the data were processed

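RNA of 24 samples was measured on 1-colour arrays, 3 for each of 8 groups. The values are log2 levels per probe set that the authors computed by RMA (per the submitters' processing notes), which corrects background, equalises the arrays' distributions and summarises probes. Its version and the build of the probe design are not given in the sources used here, and the base of the logarithm was inferred from the values. Of 16556 probe sets, 15270 had a gene and 64 were controls, and 1222 were unnamed here; where 2 probe sets shared a gene (3 genes) the brighter on average was used, leaving 15267 genes.

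One model of 8 group means was fitted to all arrays in limma 3.58.1 (R 4.3.3; lmFit, eBayes; 16 residual degrees of freedom), with Benjamini-Hochberg adjustment over all genes and calls at 0.05. Genotype differences averaged over the segments used means by replicate number. The script was tested on simulated data. The number of arrays limits the precision. The labels name biological replicates without saying that a number marks 1 mouse, so p-values measure the spread between these samples.

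The genes and lists were chosen with earlier results of these data known. Named were every measured member, Amacr and the measured family relatives. From each pathway list up to 4 called genes a comparison were named (largest change first). The 3 genes closest in pattern to each member were named too, passing over other members and predicted or clone names. Promoter windows were aligned with Biopython 1.88.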

Additional observations from a re-analysis of the deposited data

How the results depend on the processing

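Counts of called genes were recomputed with median centring, repeated quantile normalization, dim genes left out (mean under 5, leaving 10809 genes), trended robust eBayes, the mean of probe sets, replicate blocks, the 6 marker-rich arrays left out, the compared groups fitted alone, and each array left out in turn. Between the genotypes the count of called genes was 0 of 8 under every one of these that was run, in each segment, over the mean of the segments and for the interaction. For the mean of the segments, leaving out the marker-rich arrays, the random block and fitting groups alone were not run. Segment 4 minus segment 1 called 5 or 6 genes in both genotypes under all of them.

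The steps between neighbouring segments depended on the setting. Segment 3 minus segment 2 in knockout mice called 1 gene in place of 4 without the marker-rich arrays, 1 in the compared groups alone, and 1 to 5 with each array left out. Segment 2 minus segment 1 in wild-type mice called 1 in place of 2 in the compared groups alone. Segment 4 minus segment 3 in wild-type mice called 1 in place of 2 with trended robust eBayes, 0 in the compared groups alone, and 1 to 2 with each array left out. Fitting 2 groups alone, which leaves fewer residual degrees of freedom, lost in knockout mice Ces1e, Ces1f and Ces2g in segment 3 minus segment 2 (adjusted p = 0.229, 0.179 and 0.0607) and Ces1f in segment 2 minus segment 1 (0.0851). In wild-type mice it lost Ces1g in segment 2 minus segment 1 (0.108) and Aadac and Ces1f in segment 4 minus segment 3 (0.125 and 0.0695). It gained Ces1d in segment 4 minus segment 1 of knockout mice (0.000334) and Aadac in segment 3 minus segment 2 of wild-type mice (0.0235).

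The replicate numbers did not meet the bar for pairing, a correlation over 0.1 in every pair. Missing so strict a bar does not show that same-numbered arrays are unpaired. Between segments, deviations of same-numbered arrays correlated with a median of 0.0101 in knockout mice (5 of 18 pairs over 0.1; different numbers -0.0117) and 0.273 in wild-type mice (10 of 18; different numbers -0.232). Across genotypes the median was -0.123. In wild-type mice, replicate 1 was the lowest array in all 4 segments for Aadac, Ces1d and Ces2e, a hint from the data, not the design. With the replicate number as a fixed block Ces1d passed in segment 4 minus segment 1 of knockout mice (adjusted p = 0.0159) and Ces1f in segment 2 minus segment 1 of wild-type mice (adjusted p = 0.0499). With mouse as a random block (replicate block by duplicateCorrelation, consensus 0.0913) segment 4 minus segment 3 in knockout mice called 1 gene in place of 0, Aadac (adjusted p = 0.0448). This block also gained Ces1d in segment 4 minus segment 1 of knockout mice (0.042) and Ces1g in segment 3 minus segment 2 of wild-type mice (0.0412).

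Among differences the text prints, signs turned for 4, all uncalled. Ces1d between genotypes in segment 3 was -0.23 without the marker-rich arrays and -0.23 to 1.74 with each array left out. With each array left out, Aadac ran from -0.55 to 0.01 in segment 2 minus segment 1 of wild-type mice and from -0.65 to 0.05 between the genotypes over the mean of the segments, and Ces2a from -0.48 to 0.17 in segment 4 minus segment 1 of wild-type mice. Of 60 further uncalled differences not printed, 29 changed sign under some alternative. The cause of these changes was not tested.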
